A study of Mus musculus with 2 samples.

Results

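Fat-associated lymphoid clusters are small aggregates of B cells and other leukocytes held in the adipose tissue of the serous cavities, and pericardial adipose tissue (PAT), the fat around the heart, is known for holding them. The genes described here encode chemokines, receptors and cytokines known from the organization of lymph nodes and other lymphoid tissue. Whether each has a part in the clusters of this fat was not tested. They were chosen by gene symbol: Cxcl13, Cxcr5, Ccl19, Ccl21a, Ccr7, Lta, Ltb, Ltbr, Tnfsf11 and Il7. Of these 10 genes, 9 were among the 23609 genes listed in the expression table. Ccl21a was not listed there and was not analysed here.

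The study compared PAT of wild-type (WT) mice with PAT of mice that lack P2Y4, a nucleotide receptor, on the C57BL/6J background. All animals, male and female used at random and 11 to 13 weeks old, had their left anterior descending (LAD) coronary artery tied off to induce myocardial infarction (MI), and PAT was taken 24 h later. Each genotype has 1 library, made from the pooled RNA of 3 mice, and neither library came from unoperated animals. With 1 library per genotype, the differences have no replicate check, no test between genotypes was possible, and the intervals given below cover counting error only.

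In lymphoid tissue, cells that carry the lymphotoxin trimer made of the Lta and Ltb products engage the lymphotoxin beta receptor on stromal cells. This receptor is known to signal through the alternative NF-kB pathway and to induce the chemokines Cxcl13, Ccl19 and Ccl21. Cxcl13 attracts B cells through Cxcr5, while Ccl19 and Ccl21 attract naive T cells and mature dendritic cells through Ccr7. Tnfsf11 (RANKL) and Il7 are further cytokines needed for lymph node development and for the lymphoid cells that initiate it.

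The deposited values corresponded to 15508820 reads in the WT library and 14885824 reads in the P2Y4 KO library, and they are given here as CPM, the usual depth-scaled read count, which is the deposited value divided by 20. The median log2 ratio of P2Y4 KO to WT over the 18474 genes above 0.5 CPM in at least 1 library was 0. P2ry4, the deleted gene, was not listed, so the genotype labels could not be checked with it. Transcripts of heart muscle and fat cells were higher in the P2Y4 KO library and those of mesothelial cells, which line the pericardial cavity, were lower. The summed level of 7 cardiomyocyte genes was 4.55 CPM in WT and 390 CPM in P2Y4 KO, that of 8 adipocyte genes 1787 and 3757 CPM, and that of 8 mesothelial genes 2211 and 643 CPM. The part of these differences in the results was not tested. In bulk tissue, fewer cells of a type and less RNA per cell cannot be told apart.

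Among the 9 listed genes, Ccl19, Ltb and Tnfsf11 were at least 2-fold higher in the P2Y4 KO library, and Il7 and Lta were at most 0.5 of the WT level. The other 4, Cxcl13, Cxcr5, Ccr7 and Ltbr, lay between these limits. A ratio of at least 2 was seen in 8.75% of all genes past the filter and a ratio of at most 0.5 in 4.40%. The median log2 ratio of the 9 genes was 0.08.

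Such ratios are more frequent in genes with few reads, so the members were also set beside genes of their own range. Below a mean of 5 CPM, where 18.4% of genes were at least 2-fold higher and 9.88% at most 0.5 of WT, lay Ccl19 and Tnfsf11, both higher, and Lta, lower. Between 5 and 50 CPM, with 5.81% higher and 2.13% lower, Ltb was higher, Il7 was lower, and Cxcr5 and Ccr7 were past neither limit. Above 50 CPM, with 2.28% higher and 1.60% lower, neither Cxcl13 nor Ltbr was past a limit.

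**Figure D1:**
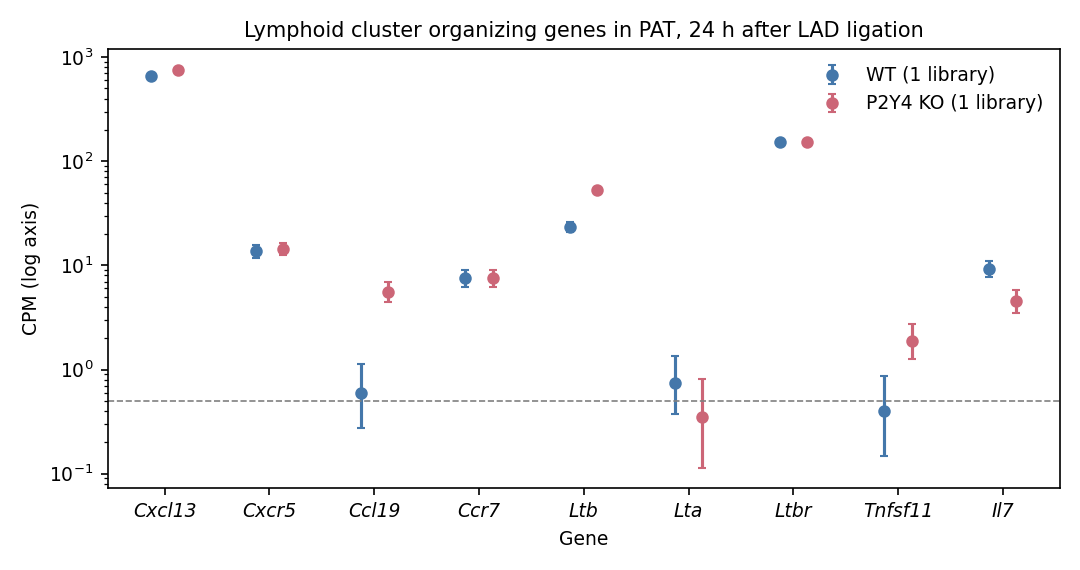
Level of the 9 listed genes in CPM (log axis) in the WT and the P2Y4 KO library. Points are the single library of each genotype, bars are 95% Poisson counting intervals, and the dashed line is the 0.5 CPM filter: Cxcl13 was at 658 and 751 CPM, whereas Ccl19, Ltb and Tnfsf11 were higher and Il7 lower in P2Y4 KO.

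The chemokine genes are told apart by the spacing of the first cysteines of the mature protein, which is what assigns a chemokine to the CXC or the CC class. The stretches below hold the first cysteine codons of exon 2, in capitals, read 5′ to 3′ on the gene's strand from GRCm38. Cxcl13 lies at chr5:95956951-95961068 on the plus strand, Ccl19 at chr4:42754525-42756577 on the minus strand, and Ccl21a within the same 19469 bases of chromosome 4 as Ccl19. The stretches are chr5:95958649-95958693, chr4:42755236-42755280 and chr4:42773711-42773755.
Cxcl13: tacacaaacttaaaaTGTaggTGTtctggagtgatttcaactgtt
Ccl19: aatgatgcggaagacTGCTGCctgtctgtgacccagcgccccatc
Ccl21a: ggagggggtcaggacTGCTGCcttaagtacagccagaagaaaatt
A codon lies between the capitals of Cxcl13, and none lies between those of Ccl19 and Ccl21a.

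Cxcl13, which guides B cells into follicles and clusters, had the highest level of the 9 genes. It was at 658 CPM in WT (10205 reads) and at 751 CPM in P2Y4 KO (11181 reads), a ratio of 1.14 (95% interval 1.11 to 1.17). The P2Y4 KO library was thus slightly the higher, by less than the 2-fold limit. Per kilobase of exon, Cxcl13 was at 572 CPM in WT and 653 CPM in P2Y4 KO, higher than 99.6% and 99.7% of genes past the filter.

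Cxcl13 stood differently against genes of the cell types that could make it. For 100 reads of the 8 mesothelial genes, which include Msln and Krt19, the WT library held 29.8 Cxcl13 reads and the P2Y4 KO library 117, a 3.92-fold difference (3.79 to 4.07). For 100 reads of 8 fibroblast genes, which include Pdgfra and Col1a1, the numbers were 10.8 and 13.5, a 1.25-fold difference (1.22 to 1.29). These 2 comparisons were added after the values were seen. Msln itself was at 0.252 of its WT level (0.240 to 0.264), while none of the 8 fibroblast genes passed either limit. Col3a1 alone held 48885 of the 94332 fibroblast reads in WT. Pdgfra, Lum and Pi16 had ratios of 1.22, 1.48 and 1.83, above that of Cxcl13. Col1a1, Col1a2, Col3a1, Dpt and Dcn had ratios of 0.873, 1.03, 0.879, 1.11 and 0.793, below it. The direction of the fibroblast comparison thus depends on the gene chosen.

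The 250 bases before the RefSeq start of Cxcl13, chr5:95956689-95956938 on the plus strand (GRCm38.p6), are shown because the gene is a known target of the alternative NF-kB pathway. In capitals are GGAGATTTG, the core of the site in this promoter known to bind RelB with p52, which begins 113 bases before the start, and TATAAA, which begins 46 bases before it.
Cxcl13 promoter: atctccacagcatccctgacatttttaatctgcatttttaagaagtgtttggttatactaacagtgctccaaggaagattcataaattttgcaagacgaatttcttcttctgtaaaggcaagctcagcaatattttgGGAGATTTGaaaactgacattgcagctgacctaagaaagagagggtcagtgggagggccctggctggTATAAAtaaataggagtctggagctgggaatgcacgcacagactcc
On both strands, GGAGATTTG was found in 0.231% of 32851 RefSeq windows of this length, and TATAAA in 12.4%.

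Ccl19, a ligand of Ccr7, had the largest ratio of the 9 genes. It was at 0.60 CPM in WT (9 reads) and at 5.55 CPM in P2Y4 KO (82 reads), a ratio of 9.25 (4.76 to 21.5). Of the 9 members, Ccl19 alone had its whole interval past the limit. Its place by level per kilobase moved from above 17.2% of genes in WT to above 55.5% in P2Y4 KO.

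The Ccl19 value carries a limit of annotation. Of the 914 stretches of 50 bases in its transcripts, 475 (52.0%) also occur in transcripts of other genes, among them Gm2564, Gm12407 and the pseudogenes Ccl19-ps1 and Ccl19-ps3. How the counting treated such reads is not given in the sources used here, so the level of Ccl19 is uncertain.

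Ccl21a has near-identical copies too. The annotation names 6 gene entries Ccl21a, Ccl21b or Ccl21c, and 588 of the 821 stretches of Ccl21a (71.6%) occur in other genes. The coding sequences of Ccl21a and Ccl21b have 402 bases each and differ at 2 of them, and 60 bases of exon 3 around a differing base, in capitals, show how close the copies are. They lie at chr4:42773489-42773548 on the minus strand and chr4:42256137-42256196 on the plus strand (GRCm38), and no level is given for either gene.
Ccl21a: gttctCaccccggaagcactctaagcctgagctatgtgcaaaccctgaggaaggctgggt
Ccl21b: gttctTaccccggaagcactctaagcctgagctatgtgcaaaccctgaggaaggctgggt

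Cxcr5, the receptor for Cxcl13 on B cells and follicular T cells, was at 13.7 CPM in WT (211 reads) and at 14.5 CPM in P2Y4 KO (215 reads). The ratio was 1.06 (0.874 to 1.29), an interval that includes 1. For 100 reads of the B cell genes Ms4a1, Cd79a and Cd79b, the libraries held 9.11 and 9.16 Cxcr5 reads, a 1.01-fold difference (0.821 to 1.23). The receptor gene and the B cell genes thus had nearly the same relation in both libraries. Cxcr5 lies at chr9:44511787-44561877 on the minus strand, and 1.86% of its stretches of 50 bases are shared with the neighbouring gene Bcl9l.

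Ccr7, the receptor for Ccl19 and Ccl21 on naive T cells and migrating dendritic cells, lies at chr11:99144196-99155077 on the minus strand. It was at 7.55 CPM in WT (117 reads) and at 7.50 CPM in P2Y4 KO (111 reads). The ratio was 0.993 (0.755 to 1.29), so the receptor had the same level within counting error while its ligand Ccl19 differed. Relative to the T cell receptor genes Cd3d, Cd3e and Cd3g, with 102 reads in the WT library and 208 in the other, Ccr7 was lower in P2Y4 KO, at 53.4 against 115 reads for 100 marker reads, a 0.466-fold difference (0.322 to 0.672). The lower relation to the Cd3 genes does not extend to all T cell genes. Tcf7 and Lef1, genes of naive T cells, had ratios of 0.924 and 0.947, near that of Ccr7, while the summed ratio of 11 T cell genes was 1.73.

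**Figure D2:**
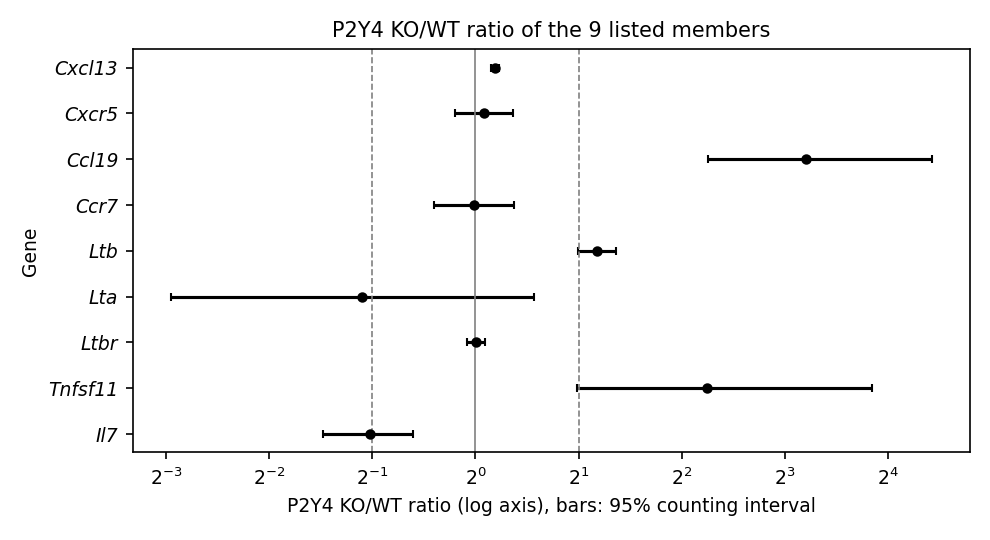
Ratio of the P2Y4 KO to the WT level (log axis) for the 9 listed genes, with 95% counting intervals. Dashed lines mark ratios of 0.5 and 2: the interval of Ccl19 lies wholly above 2, those of Ltb and Tnfsf11 reach below 2, that of Il7 reaches above 0.5, and that of Lta includes 1.

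The lymphotoxin genes lie side by side on chromosome 17. Ltb (chr17:35194439-35196320, plus strand), Tnf and Lta (chr17:35203165-35205351, minus strand) fall within 10913 bases of GRCm38. Ltb encodes the membrane anchor of the lymphotoxin trimer and is known from B cells, T cells and innate lymphoid cells. It was at 23.3 CPM in WT (361 reads) and at 52.7 CPM in P2Y4 KO (784 reads), a ratio of 2.26 (1.99 to 2.57), so its interval reached just below 2.

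Ltb was close to equal in both libraries relative to the Cd3 genes and higher in P2Y4 KO relative to B cell genes. For 100 reads of the Cd3 genes the libraries held 354 and 377 Ltb reads, a 1.06-fold difference (0.806 to 1.40), whereas for 100 reads of the B cell genes they held 15.6 and 33.4, a 2.14-fold difference (1.87 to 2.47). The comparison with both marker sets was chosen after the values were seen. It does not extend to all T cell genes. Tcf7, another T cell gene, had a ratio of 0.924 (0.714 to 1.19). The summed ratio of 11 T cell genes was 1.73, against 2.26 for Ltb.

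**Figure D3:**
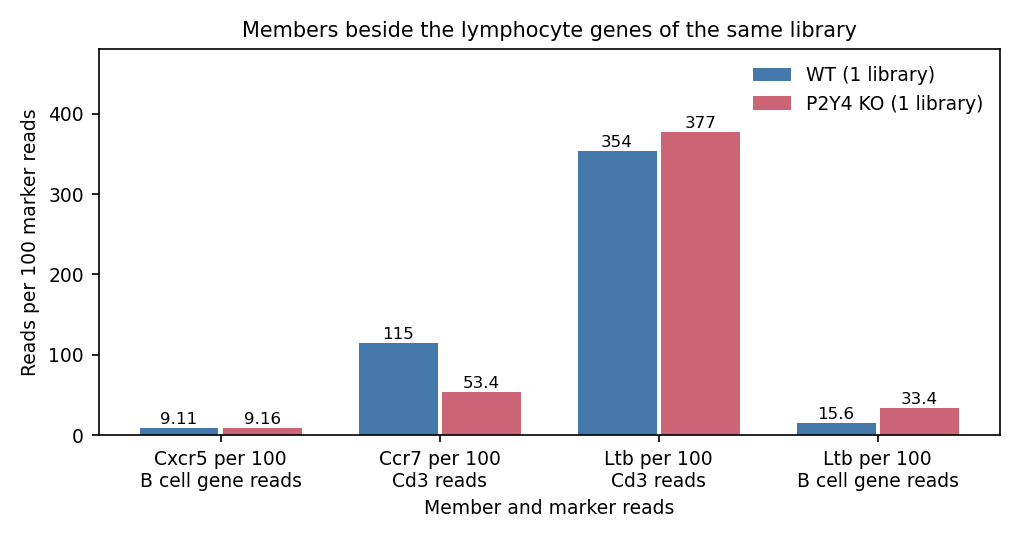
Reads of Cxcr5, Ccr7 and Ltb for 100 reads of lymphocyte marker genes in the same library (linear axis), 1 bar per library. Ltb had 354 and 377 reads for 100 Cd3 reads but 15.6 and 33.4 for 100 B cell gene reads, and Ccr7 had 115 in WT and 53.4 in P2Y4 KO for 100 Cd3 reads.

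The bases before Ltb are shown because a match to the classical kappaB core GGNNNTTCC, in capitals, begins 87 bases before the RefSeq start, on the minus strand. The printed part, chr17:35194257-35194438 on the plus strand (GRCm38.p6), stops before the first annotated exon and has 182 bases.
Ltb promoter: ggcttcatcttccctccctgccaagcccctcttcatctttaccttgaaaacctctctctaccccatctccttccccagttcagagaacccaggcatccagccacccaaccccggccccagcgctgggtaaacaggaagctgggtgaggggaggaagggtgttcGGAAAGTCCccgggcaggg
This core is frequent, being found on either strand in 15.7% of the 32851 windows. It was also found before Ccl19 and Ccl21a. RefSeq windows were matched for 7 of the 10 genes, which do not include Cxcr5, Ccr7 and Il7.

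Lta, which encodes the soluble partner of the trimer and is made by lymphocytes, was at 0.75 CPM in WT (11 reads) and at 0.35 CPM in P2Y4 KO (5 reads). Its ratio was 0.467, but the interval of 0.129 to 1.48 includes 1, so at this depth no difference could be seen. Lta and Ltb, the 2 parts of 1 ligand, therefore had ratios on opposite sides of 1, with that of Lta within counting error. Tnf, which lies between them and is listed here as a neighbour, was at 28.7 and 44.7 CPM, a ratio of 1.56 (1.38 to 1.76).

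Ltbr, the receptor for this ligand on stromal and myeloid cells, lies at chr6:125306571-125313885 on the minus strand. It was at 152 CPM in WT (2355 reads) and at 153 CPM in P2Y4 KO (2271 reads), a ratio of 1.005 (0.948 to 1.06). It was thus nearly equal in both libraries, with an interval that leaves a difference of a few percent.

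Among 15 other genes of the lymphotoxin, TNF and alternative NF-kB pathway, 1 was at least 2-fold higher, none at most 0.5 of WT, and the median log2 ratio was 0.08. The higher gene was Tnfrsf14, a receptor for the Tnfsf14 product LIGHT, at 10.3 and 20.7 CPM with a ratio of 2.00 (1.66 to 2.45). Tnfsf14, which also binds Ltbr, was at 45.8 and 35.3 CPM, a ratio of 0.771 (0.687 to 0.864). The kinase gene Map3k14 (NIK), the entry point of the alternative pathway, had a ratio of 0.988 (0.882 to 1.11). Its transcription factor genes Nfkb2 and Relb had ratios of 1.16 (1.09 to 1.23) and 1.22 (1.11 to 1.34), both above 1 and below 2.

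Tnfsf11 (RANKL), which lies at chr14:78277445-78308043 on the minus strand, is known in lymph node development and in bone resorption. It was at 0.40 CPM in WT (6 reads) and at 1.90 CPM in P2Y4 KO (28 reads), a ratio of 4.75 (1.98 to 14.4) that rests on few reads. It had no call where 0.5 CPM was required in both libraries. Its receptor gene Tnfrsf11a (RANK) had a ratio of 1.12 (0.981 to 1.27). The gene of its decoy receptor osteoprotegerin, Tnfrsf11b, was at 108 and 100.3 CPM, a ratio of 0.928 (0.865 to 0.996).

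Il7, the survival cytokine of lymphocytes and innate lymphoid cells, lies at chr3:7569994-7613760 on the minus strand. It was at 9.25 CPM in WT (143 reads) and at 4.55 CPM in P2Y4 KO (67 reads), a ratio of 0.492 (0.360 to 0.657). Among the 9 genes it was the one with an interval wholly below 1, but the ratio lies close to the limit of 0.5. Its log2 ratio of -1.02 became -0.82 with ribosomal protein genes set to a ratio of 1 and -0.95 with 0.5 CPM added, and under both it no longer passed. Its receptor gene Il7r was at 12.6 and 12.1 CPM, a ratio of 0.956 (0.776 to 1.18).

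None of 10 listed genes of the IL-7 receptor and innate lymphoid cells passed either limit, with a median log2 ratio of 0.17. Kit, a receptor gene of progenitors and mast cells, was at 5.70 and 10.5 CPM with a ratio of 1.83 (1.40 to 2.41). Gata3, a transcription factor gene of type 2 innate lymphoid cells and T cells, was at 2.65 and 1.55 CPM, a ratio of 0.585 (0.335 to 0.997). The rest of the list lay on both sides of 1. Id2 and Zbtb16 had ratios of 0.769 and 0.714, and Il2rg had one of 1.38. Il1rl1, Rora, Klrg1 and Il5 had ratios of 1.08, 1.16, 1.35 and 1.83, with intervals that include 1.

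Most chemokine receptors, decoys and partners around the members had ratios above 1. Of 9 listed receptors, decoys and partners, 2 were higher, none was lower, and the median log2 ratio was 0.41. Ackr4, which scavenges Ccl19 and Ccl21, was at 4.80 and 15.9 CPM, a ratio of 3.31 (2.55 to 4.37), and Ackr2, a scavenger of inflammatory chemokines, had 12 and 27 reads, a ratio of 2.31 (1.15 to 5.08). Ch25h lay just under the limit, at a ratio of 1.89 (1.69 to 2.11). Ackr3, which scavenges Cxcl12, was the gene of this list with a ratio below 1, at 150 and 86.6 CPM, a ratio of 0.576 (0.538 to 0.617).

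**Figure D4:**
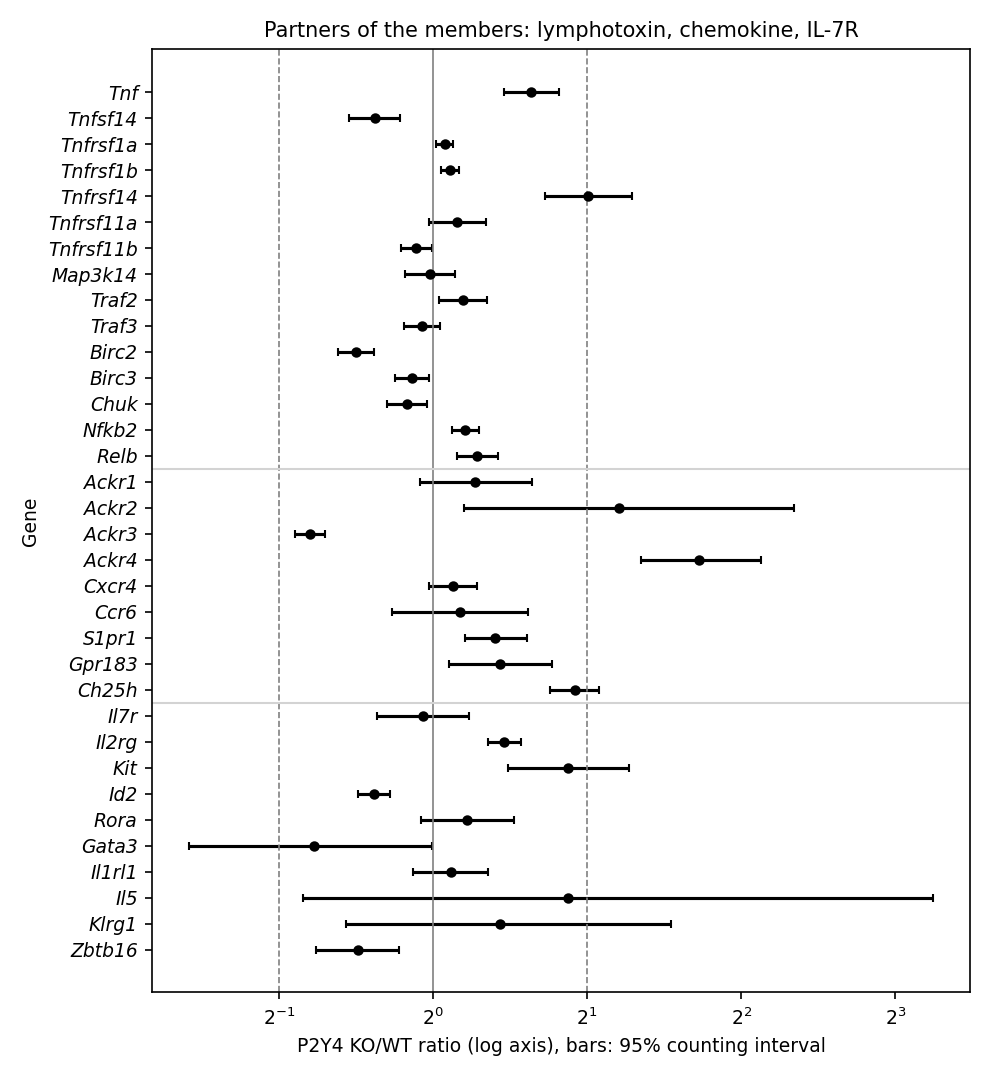
Ratio of the P2Y4 KO to the WT level (log axis) with 95% counting intervals for partner genes of the members, with the lymphotoxin, TNF and NF-kB genes on top, chemokine receptors and decoys in the middle and IL-7 receptor and innate lymphoid genes at the bottom. Dashed lines mark 0.5 and 2: Tnfrsf14, Ackr2 and Ackr4 reached 2, and the other genes plotted lay between 0.5 and 2.

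Other stromal cytokines and adhesion molecules held 2 higher genes and no lower gene among 10 past the filter, with a median log2 ratio of 0.29. Cxcl12, a chemokine of stromal cells, was at 92.3 and 281 CPM, a ratio of 3.05 (2.87 to 3.24), and Il15 was at 2.95 and 9.05 CPM, a ratio of 3.07 (2.20 to 4.45). Il33, an alarmin known to activate type 2 innate lymphoid cells in these clusters, was at 306 and 312 CPM, a ratio of 1.02 (0.978 to 1.06). Cxcl12 thus differed while Cxcl13 and Il33 were close to 1.

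The cells that carry the receptors were described from marker lists. Of 11 B cell genes, 2 were higher and none lower, with a median log2 ratio of 0.22, and the others lay on both sides of 1. Ms4a1, the gene of CD20, had a ratio of 1.19 (1.08 to 1.32), whereas Cd79b, a chain of the B cell receptor, had one of 0.834 (0.751 to 0.925) and Fcrla one of 0.731 (0.549 to 0.969). The higher genes were Cr2, with 21 and 89 reads and a ratio of 4.29 (2.72 to 7.48), and Fcer2a, with 13 and 53 reads and a ratio of 4.24 (2.28 to 8.49), both known from mature follicular B cells and follicular dendritic cells. Both lay below a mean of 5 CPM, where 18.4% of all genes past the filter were at least 2-fold higher. None of 9 genes of B-1 and plasma cells and none of 5 listed genes of follicular dendritic cells passed a limit, with medians of 0.27 and 0.07.

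Of 11 genes of naive and central memory T cells, 5 were higher and none lower, with a median log2 ratio of 0.97. These 5 lay below a mean of 5 CPM, where 18.4% of all genes past the filter were at least 2-fold higher. Cd8a had 15 and 49 reads, a ratio of 3.30 (1.88 to 6.53), and Cd4 had 40 and 85 reads, a ratio of 2.21 (1.50 to 3.31). Tcf7 and Lef1, transcription factor genes of naive T cells, had ratios of 0.924 (0.714 to 1.19) and 0.947 (0.419 to 2.22), intervals that include 1. The summed level of this list was 23.6 CPM in WT and 40.8 CPM in P2Y4 KO. Ptprc, the gene of CD45 on all leukocytes, was at 230 and 309 CPM, a ratio of 1.34 (1.29 to 1.41).

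High endothelial venules are the vessels through which lymphocytes enter lymph nodes. Of their defining genes, Glycam1 had 1 read in each library, and Chst4, a sulfotransferase gene, was at 6.10 and 3.65 CPM, a ratio of 0.598 (0.420 to 0.845). Of the 9 genes of this list past the filter, Sele was higher, at 29 and 67 reads with a ratio of 2.39 (1.54 to 3.86), and Cd34, which other cells also express, was lower, at a ratio of 0.425 (0.408 to 0.442). The thymus lies close to this fat, and the summed level of the 6 listed of 11 thymus genes was 27.2 CPM in WT and 66.2 CPM in P2Y4 KO. Most of it was Cd1d1, which other cells also express, with 313 and 863 reads and a ratio of 2.87 (2.52 to 3.28). Dntt had 3 and 2 reads, Prss16 10 and 17 and Themis 11 and 21. Rag1, Rag2, Ptcra, Foxn1 and Psmb11 were not listed, and since genes without a WT read are not listed, this says nothing of the P2Y4 KO library.

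**Figure D5:**
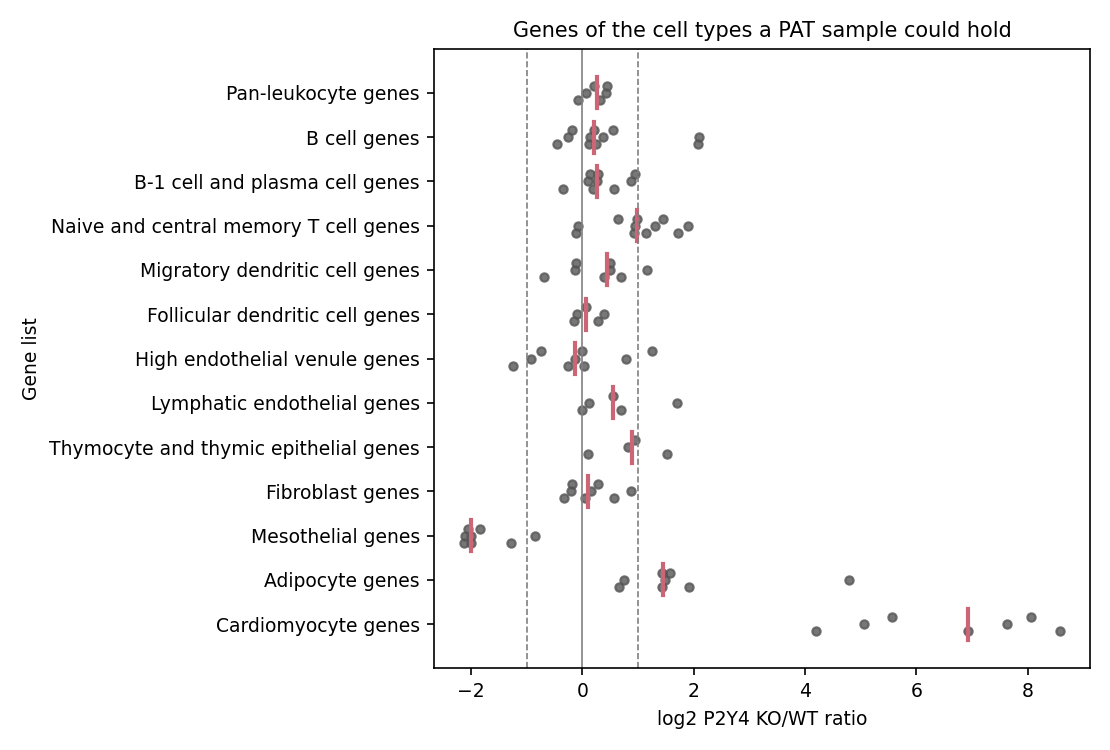
Log2 ratio of the P2Y4 KO to the WT level of the genes past the filter in each cell type list, 1 point per gene, with the list median as a bar and the ratios of 0.5 and 2 as dashed lines. Cardiomyocyte and adipocyte genes lay mostly above 2 and mesothelial genes mostly below 0.5, whereas B cell, fibroblast and follicular dendritic cell genes lay around 1.

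By level per kilobase of exon, the 9 genes kept the order Cxcl13, Ltbr and Ltb at the top in both libraries. In WT, Cxcl13 was 8.87-fold (8.48 to 9.28) above Ltbr, and Ltbr was 4.20-fold above Ltb. At this length Cxcr5 and Ccr7 were neighbours and could not be told apart in either library, with intervals of their ratio of 0.850 to 1.35 in WT and 0.910 to 1.46 in P2Y4 KO. Per kilobase of the longest transcript, Cxcr5 was at 4.80 CPM in WT and 5.08 CPM in P2Y4 KO, and Ccr7 at 3.82 and 3.79 CPM. Their distance thus depends on the length used, and no interval was made for the longest transcript. Ccl19 stood next to Lta at the low end in WT, where the pair differed by less than counting error (0.478 to 3.46). In P2Y4 KO it stood directly below Ltb and above Cxcr5 by 1.48-fold (1.12 to 1.90). Il7 and Tnfsf11, which had Ccl19 and Lta between them in WT, could not be told apart in P2Y4 KO (0.656 to 1.67).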

How the data were processed

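Total RNA of PAT was pooled from 3 mice per genotype and sequenced as stranded mRNA libraries, 1 per genotype. The authors trimmed reads with Trimmomatic, aligned them with STAR to GRCm38.p4 (mm10) and counted them with HTSeq on Ensembl release 87, with tool versions and strand setting not given in the sources used here. As deposited, the signal of a gene had been scaled by the authors to 20000000 reads per library. Of these values, 99.9% (WT) and 99.8% (P2Y4 KO) equalled a whole number of reads scaled and rounded up, with no tolerance, at the fitted depth, where 77.5% and 74.4% of whole numbers can be reached. This gave the depths and read numbers. Genes without a WT read are not listed, so the counts of higher genes leave them out. A column of the authors' own ratios was not used.

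CPM was the signal divided by 20, and the ratio was P2Y4 KO over WT without a pseudocount. Genes above 0.5 CPM in at least 1 library were kept, and limits were ratios of 2 and 0.5. Exact 95% intervals condition on the summed reads. Exon lengths and coordinates came from GENCODE M21 (GRCm38), promoters from RefSeq. The calculations used Python 3.11.15, numpy 2.4.6, pandas 2.3.3 and scipy 1.17.1 and were tested on simulated data. All 10 members are named, with partner and marker genes from 17 lists. From the B cell, T cell and innate lymphoid lists 1 gene each was left out after the values were seen, for a reason unrelated to them, and is not reported here. The members and lists were chosen with earlier results of these data known. Alternatives were other scalings, filters, a pseudocount and, for levels per kilobase, the length of the longest transcript.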

Additional observations from a re-analysis of the deposited data

How the results depend on the processing

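No paired analysis was possible because each genotype has 1 library, and for the same reason no replicate could be left out. Of 63 alternative log2 ratios of the members, 60 moved by less than counting error and no member past a limit changed sign. Ccr7, at -0.01, changed sign, to 0.003 with the 100 most abundant genes left out of the totals and to 0.19 with the ribosomal scaling. With the longest transcript length, 4 levels per kilobase, those of Cxcr5 and Ltbr in both libraries, moved by more than counting error and 14 did not. With the median of 82 ribosomal protein genes set to a ratio of 1, which adds 0.20 to every log2 ratio, Cxcl13 was at 0.39, Ltb at 1.38 and Ltbr at 0.21. Under that scaling 0 members were lower, against 2 with the scaling used above, and 529 genes were lower, against 812. Of the genes past a limit 80.3% were higher, against 66.6%. With 0.5 CPM added, 0 members and 388 genes were lower and 1030 genes were higher, against 1617. With CPM above 0.5 in both libraries, which leaves out Tnfsf11 and Lta, 2 members were higher, 1 member and 451 genes were lower and 1056 genes were higher, and with CPM above 1 in at least 1 library 1 member was lower. Without a filter 2352 genes were lower and 49.1% of those past a limit were higher. This count includes 919 genes at 0 in P2Y4 KO, whereas genes without a WT read are not listed, so the directions are not counted alike. Where the whole interval had to lie past a limit, 1 member was higher and 0 were lower, with 563 genes higher and 193 lower.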

Other observations

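Cells that carry Ccr7 or respond to its ligands were also looked at outside the comparisons above. Of 8 genes of migratory dendritic cells, Flt3, a receptor gene of dendritic cell precursors, was past the 2-fold limit, with 77 and 166 reads and a ratio of 2.24 (1.70 to 2.98), none was at most 0.5 of WT, and the median log2 ratio was 0.44. Ccl17, a chemokine of these cells, was lower, at 24.0 and 14.9 CPM with a ratio of 0.619 (0.522 to 0.733). Others of the list were above 1, with Ccl22 at 1.41 (1.12 to 1.79), Fscn1 at 1.41 (1.30 to 1.54), Marcksl1 at 1.62 (1.53 to 1.72) and Zbtb46 at 1.31 (1.09 to 1.57). Cd83 and Ly75, at 0.912 and 0.928, had intervals that include 1. Of 5 lymphatic endothelial genes past the filter, Prox1 was past the limit on 3 and 9 reads, with an interval of 0.780 to 17.9 that includes 1. Lyve1, which macrophages also express, was at 91.7 and 148 CPM, a ratio of 1.61 (1.51 to 1.73). None of 6 pan-leukocyte genes passed a limit, and their median log2 ratio was 0.27.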
